A study of Rattus norvegicus with 10 samples.

Results

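Chemokines, their receptors and a group of acute-phase and interleukin-1 family genes were followed through cultured heart cells of newborn rats, with and without phenylephrine, which acts on alpha1-adrenergic receptors and makes cardiomyocytes grow in size. Membership was set by gene symbol: every Ccl, Cxcl, Ccr or Cxcr symbol ending in a number, apart from Cxcl10 and Cxcl11, together with Cx3cl1, Lcn2, Chi3l1, C3, Ptx3, Il1b, Il1rl1, Il33 and Tnfaip3. This gave 55 of the 28522 symbols in the count table, namely 31 chemokine ligands, 16 chemokine receptors and 8 others. Of these, 28 passed the filter on low counts and 27 did not. The rule uses symbols alone and no measured value, but it was set with earlier results of these data known.

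Ventricular cardiomyocytes and cardiac fibroblasts came from rats 1 to 3 days old, by enzymatic digestion and Percoll density centrifugation. At 24 h after plating they were changed to serum free medium (SFM) or to the same medium with 10 µM phenylephrine (PE). The 4 groups were cardiomyocytes in SFM (n = 3), cardiomyocytes with PE (n = 3), fibroblasts in SFM (n = 2) and fibroblasts with PE (n = 2). Rat strain, sex and time in PE are not given in the sources used here, nor is it stated that replicates were separate cultures or animals, so p-values here rest on a spread among libraries that may be technical. The fibroblasts were at passage 2 and the cardiomyocytes were not passaged, so cell type and passage cannot be told apart. Density centrifugation enriches cardiomyocytes without purifying them, and below the term cardiomyocyte cultures is used for that fraction.

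Chemokines are small secreted proteins that draw leukocytes along a gradient by binding G protein-coupled receptors on them. Ligands of the CC class such as Ccl2 and Ccl7 act on monocytes through Ccr2, and ligands of the CXC class such as Cxcl1 act on neutrophils through Cxcr2, while Cxcl12 acts through Cxcr4 on many cell types. In heart tissue chemokines are best known for leukocyte recruitment after injury. Many of them, like the acute-phase proteins Lcn2 and C3, are induced through the transcription factor NF-kappaB when interleukin 1 or tumour necrosis factor binds its receptor, and Tnfaip3 encodes an enzyme that restrains this pathway.

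Library totals ran from 18048944 to 22794744 counts, and levels are given as CPM (counts scaled to the normalised library size), in the order of replicate number, on a scale that does not correct for gene length. A floor of 3 counts was worth 0.128 to 0.166 CPM in a library, counting error alone. Cardiomyocyte markers (Myh6, Tnnt2, Actn2, Ryr2, Nkx2-5 and Tnni3) summed to 13100 to 17200 CPM in cardiomyocyte cultures and 497 to 578 CPM in fibroblasts. Fibroblast markers (Pdgfra, Tcf21, Col1a1, Dcn, Lum and Ddr2) summed to 29100 to 37200 CPM in fibroblasts and to 4800 to 10100 CPM in the cardiomyocyte cultures, and Col1a1 made up most of each sum. In SFM 4 of these 6 were lower in cardiomyocyte cultures, Lum was higher (log2 1.14) and Dcn was not called. Cardiomyocyte SFM replicate 2 and PE replicate 1 stood apart from their group mates over all genes, with a chi-square per degree of freedom of 19.4 to 24 against 4.41 and 3.11 between the mates. The fibroblast pairs had 15.7 in SFM and 2.51 with PE. Results that rest on these 2 libraries are given with and without them.

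Promoters were read for 42 of the 55 genes, 21 of them tested, from RefSeq (build GRCr8, whereas the counts were made on Rnor_6.0). An NF-kappaB motif of 10 bases, GGGA and TCC with any 3 bases between them, on either strand, lay within 250 bases before the start of 8 of the 42 genes and of 938 of 27457 promoters (3.42%). Among the 21 tested genes with a promoter, 5 held it: Cxcl1, Cxcl6, Ccl7, Lcn2 and Tnfaip3. Their sequences are shown because 4 of these genes are among those that varied most between libraries, and Ptx3 and Cx3cl1, which held no match, because they rose with PE in fibroblasts. Each stretch is 120 bases, 5′ to 3′ on the gene's strand, with the motif in capitals. The stretches end at the base before the annotated start, apart from that of Lcn2, which runs from 250 to 131 bases before it. The motif occurs on both strands at positions that overlap in Cxcl1, Cxcl6 and Lcn2, so that 11 bases are in capitals there. The intervals are, in the order printed, chr14:17479322-17479441 (- strand), chr14:17596418-17596537 (- strand), chr10:67513975-67514094 (+ strand), chr3:36081911-36082030 (- strand), chr1:15543980-15544099 (- strand), chr2:152797443-152797562 (+ strand) and chr19:10242821-10242940 (- strand).
Cxcl1: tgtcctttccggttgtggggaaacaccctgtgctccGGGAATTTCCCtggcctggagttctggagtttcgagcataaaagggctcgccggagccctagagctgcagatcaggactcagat
Cxcl6: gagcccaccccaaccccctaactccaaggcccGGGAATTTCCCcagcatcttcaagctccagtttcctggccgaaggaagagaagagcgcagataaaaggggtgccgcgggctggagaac
Ccl7: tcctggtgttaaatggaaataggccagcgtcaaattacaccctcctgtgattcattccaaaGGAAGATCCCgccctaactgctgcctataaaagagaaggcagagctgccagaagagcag
Lcn2: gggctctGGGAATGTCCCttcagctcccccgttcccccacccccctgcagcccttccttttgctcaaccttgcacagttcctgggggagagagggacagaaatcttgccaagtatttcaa
Tnfaip3: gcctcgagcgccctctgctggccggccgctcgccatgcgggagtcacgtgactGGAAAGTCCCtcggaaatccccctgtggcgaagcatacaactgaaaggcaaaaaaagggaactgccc
Ptx3: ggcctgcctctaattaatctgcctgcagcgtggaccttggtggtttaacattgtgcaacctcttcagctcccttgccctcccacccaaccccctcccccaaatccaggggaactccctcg
Cx3cl1: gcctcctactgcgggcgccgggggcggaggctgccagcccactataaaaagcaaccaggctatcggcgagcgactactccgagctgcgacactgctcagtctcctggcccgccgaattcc
Other motifs searched in the same way were TTGCNNAA of C/EBP factors, in 9 of the 42 genes and 9.2% of all promoters, TGANTCA of AP-1, in 5 of 42 and 6.36%, and the TATA box TATAAA, in 10 of 42 and 13.1%. A match describes the letters and does not show that a factor binds.

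The comparison of the cell types in SFM asked where these inflammatory transcripts lie in resting cultures. Ligands that attract neutrophils and monocytes, with Lcn2, C3 and Chi3l1, were many-fold higher in the cardiomyocyte cultures, and Ptx3 was higher in fibroblasts. In SFM 25 of the 28 tested genes were higher in cardiomyocyte cultures and 1 was lower, against 66.1% of all genes called in either direction, 34.5% higher and 31.7% lower (edgeR quasi-likelihood test, adjusted p below 0.05). With PE, 23 were higher and 1 lower, against a background of 65% (33.7% higher, 31.2% lower). The median log2 difference of the tested members was 3.29 in SFM and 3.27 with PE, beside 0.02 over all genes in both. These counts are descriptions, because 12 of the 28 had fewer than 10 counts in every fibroblast library and passed the filter through the cardiomyocyte libraries. Of the 16 with at least 10 counts in a fibroblast library, 15 were higher and 1 lower in SFM, and 12 and 1 with PE, with median log2 differences of 2.01 and 2.09. Without the 2 libraries that stand apart the counts over the 28 were 27 and 1 in SFM, with a background of 71% (36.3% higher, 34.7% lower), and 24 and 2 with PE, with 70.6% (36.4% and 34.1%). Leaving out fibroblast PE replicate 2 lowered the count with PE to 13 higher and 1 lower, beside 3977 and 3632 of 14140 genes. In limma-voom 21 were higher and 1 lower in SFM, beside 4760 and 4445 of 13869 genes. With PE limma-voom called 17 and 1, beside 4631 and 4367. The medians stay as given when Ccl12 and Ccl5 are put at the lower bounds that a floor of 3 counts allows them.

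**Figure D1:**
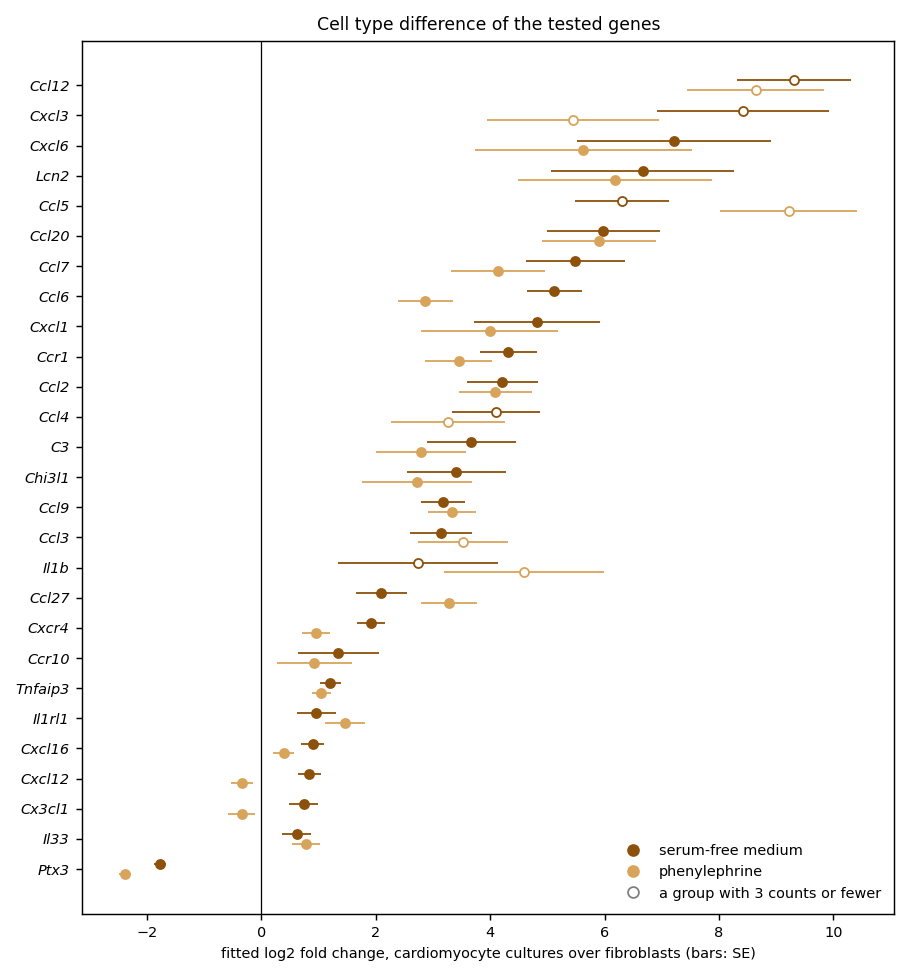
Fitted log2 fold change between cardiomyocyte cultures and fibroblasts (x axis, with SE) for the tested genes reported here (y axis, ordered by the value in SFM), in SFM (dark) and with PE (light). Open symbols mark comparisons in which the fibroblast group held 3 counts or fewer. Ptx3 is alone on the fibroblast side in both media, at -1.77 and -2.38, while Cxcl12 and Cx3cl1 lie at 0.84 and 0.74 in SFM and at -0.33 and -0.34 with PE.

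The CXC ligands known for attracting neutrophils were nearly absent from fibroblasts. Cxcl1 stood at 27.3, 4.66 and 22.4 CPM in cardiomyocyte SFM, at 3.66, 15.4 and 15.6 CPM with PE, at 0.658 and 0.625 CPM in fibroblast SFM and at 0.886 and 0.553 CPM with PE. Every cardiomyocyte library was above every fibroblast library, and within each cardiomyocyte group 1 library was far below the others. The difference was 28.2-fold in SFM (log2 4.82 ± 1.1, SE; edgeR adjusted p = 0.00599) and 15.9-fold with PE. Cxcl6, a ligand of the same kind, had 23.5, 2.14 and 22.3 CPM in SFM and 1.86, 7.33 and 7.57 CPM with PE in cardiomyocyte cultures. In fibroblasts Cxcl6 lay between 0.0521 and 0.156 CPM, and the fitted log2 difference was 7.21 ± 1.7 in SFM and 5.63 ± 1.9 with PE. The cell types did not overlap in either medium. With PE the calls of Cxcl1 and Cxcl6 were lost without either fibroblast PE library (edgeR adjusted p = 0.0694 to 0.125), and that of Cxcl6 also without cardiomyocyte PE replicate 2 (0.0555) or 3 (0.0657). In limma-voom neither was called, in SFM (adjusted p = 0.057 for Cxcl1 and 0.125 for Cxcl6) or with PE (0.105 and 0.22).

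Cxcl3 had 15.6, 2.84 and 14 CPM in cardiomyocyte SFM and 2.02, 3.69 and 5.55 CPM with PE. The fibroblast libraries held 1 count of Cxcl3 in SFM and 3 with PE, which gives ratios of 438 (95% counting interval 78.3 to 17300) and 47.4 (16 to 231). These intervals leave out the spread among libraries. The Cxcl3 call with PE (edgeR adjusted p = 0.0101) was lost without fibroblast PE replicate 1 (0.0528) or 2 (0.0551). It was also lost in limma-voom (adjusted p = 0.0868). Cxcl2, a near copy of Cxcl1 and Cxcl3, had 14 counts in SFM and 7 with PE over the cardiomyocyte groups and 0 in every fibroblast library. Reads of Cxcl1, Cxcl2 and Cxcl3 could be shared or lost in counting, so their single values are uncertain. The receptors of these ligands, Cxcr1 and Cxcr2, had 1 and 2 counts over all 10 libraries.

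Of the CC ligands for monocytes, Ccl2 stood at 338, 115 and 334 CPM in cardiomyocyte SFM, at 93.1, 195 and 213 CPM with PE, at 13.7 and 14.6 CPM in fibroblast SFM and at 10.6 and 8.95 CPM with PE. It was thus well detected in both cell types, and 18.5-fold higher in cardiomyocyte cultures in SFM (log2 4.21 ± 0.62; edgeR adjusted p = 0.000535) and 17-fold with PE. Ccl7 followed the same order of libraries, with 86.4, 25.6 and 82.5 CPM in cardiomyocyte SFM, 19.5, 48.2 and 54.8 CPM with PE, 1.32 and 1.56 CPM in fibroblast SFM and 2.14 and 2.49 CPM with PE. Its log2 difference was 5.49 ± 0.87 in SFM and 4.14 ± 0.82 with PE. Ccl12, a rodent ligand of Ccr2, had 4.05, 3.37 and 4.59 CPM in cardiomyocyte SFM, 1.22, 3.15 and 3.18 CPM with PE, and 0 counts in the 4 fibroblast libraries. Against a floor of 3 counts over the fibroblast group it was at least 52.6-fold higher in SFM and at least 31.5-fold with PE. Ccl2, Ccl7, Ccl11, Ccl12 and Ccl1 lie in a row on the chromosome in the RefSeq annotation. Ccl11 and Ccl1 of that row had 14 and 1 counts over all 10 libraries, and Ccr2, the receptor of Ccl2, Ccl7 and Ccl12, had 0 counts in all 10 libraries (up to 0.0152 CPM is allowed by a floor of 3 counts over them).

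A further row of neighbours, Ccl5, Ccl9, Ccl6, Ccl3 and Ccl4, holds ligands of Ccr1 and related receptors made largely by macrophages and lymphocytes. Ccl5 had 5.64, 2.89 and 5.06 CPM in cardiomyocyte SFM and 2.33, 3.59 and 5.36 CPM with PE, against 2 counts over both fibroblast SFM libraries (ratio 89.8, interval 24.6 to 745) and 0 with PE (at least 47.4-fold). Ccl6 had 6.51, 3.85 and 6.25 CPM in cardiomyocyte SFM, 2.44, 1.79 and 2.32 CPM with PE, 0.0506 and 0.26 CPM in fibroblast SFM and 0.417 and 0.166 CPM with PE. The cell types did not overlap for either gene, and within the cardiomyocyte cultures the SFM and PE libraries did not overlap for Ccl6. Ccl9 had 4.34, 3 and 4.59 CPM, then 3.08, 3.1 and 3.72 CPM with PE, and 0.202, 0.677, 0.417 and 0.221 CPM in the fibroblast libraries. Ccl3 had 2.17, 1.34 and 3.32 CPM, then 0.636, 1.25 and 1.11 CPM with PE, and 0.152, 0.365, 0.0521 and 0.111 CPM in fibroblasts. The log2 differences in SFM were 5.12 ± 0.48 for Ccl6, 3.18 ± 0.38 for Ccl9 and 3.14 ± 0.54 for Ccl3, all called. Ccl4 ranged from 0.38 to 1.83 CPM in cardiomyocyte cultures and had 3 counts over fibroblast SFM, a ratio of 18.8 (6.23 to 92.7). Ccl3 and Ccl4, and Ccl6 and Ccl9, resemble each other in sequence, and Ccl3 and Ccl6 also overlap 1 provisional locus, so their reads may be shared.

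Ccl20, the ligand of Ccr6, had 9.4, 4.55 and 6.59 CPM in cardiomyocyte SFM, 2.7, 9.34 and 8.2 CPM with PE, and 0.0506, 0.156, 0.208 and 0 CPM in the fibroblast libraries. Its log2 difference was 5.98 ± 0.99 in SFM, and its receptor Ccr6 had 3 counts in all. Ccl27, a skin-homing ligand of Ccr10, had 1.54, 1.28 and 1.83 CPM, then 1.59, 3.04 and 1.83 CPM with PE, against 0.202, 0.521, 0.208 and 0.221 CPM in fibroblasts. It was 4.29-fold higher in cardiomyocyte cultures in SFM and 9.75-fold with PE, and it overlaps Il11ra1. The library kit, TruSeq RNA v2, does not mark strand, so reads of overlapping genes cannot be told apart; this also touches Ccr10 (with Cntnap1), Cxcl16 (with Zmynd15) and Ptx3 (with Veph1).

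In contrast to these ligands, Cxcl12, Cxcl16 and Cx3cl1 were well detected in both cell types. Cxcl12, which retains and guides cells through Cxcr4, had 38.1, 23 and 38.9 CPM in cardiomyocyte SFM, 19.8, 20.1 and 22.8 CPM with PE, 18.9 and 18.5 CPM in fibroblast SFM and 27 and 25.5 CPM with PE. It was 1.79-fold higher in cardiomyocyte cultures in SFM (log2 0.84 ± 0.2; edgeR adjusted p = 0.00374), whereas with PE the fibroblasts were above the cardiomyocyte cultures without passing the test (-0.33 ± 0.19, adjusted p = 0.164). Cxcl16, a membrane-anchored ligand of Cxcr6, had 54.1, 38.3 and 58.2 CPM, then 47.6, 56.7 and 60.5 CPM with PE, against 22.7 and 31.1 CPM in fibroblast SFM and 42 and 41.5 CPM with PE. Its difference was 1.87-fold in SFM and did not pass the test with PE (log2 0.39 ± 0.19, adjusted p = 0.0942). Cx3cl1, the membrane-anchored ligand fractalkine, had 54.6, 37.4 and 53.1 CPM in cardiomyocyte SFM, 54.3, 69.9 and 72.5 CPM with PE, 20.5 and 37.4 CPM in fibroblast SFM and 82.5 and 83 CPM with PE. In SFM it was 1.67-fold higher in cardiomyocyte cultures (edgeR adjusted p = 0.0321; call lost without cardiomyocyte SFM replicate 1 or 3 or fibroblast SFM replicate 1, adjusted p = 0.0817, 0.0774 and 0.21), although cardiomyocyte SFM replicate 2 and fibroblast SFM replicate 2 had the same 37.4 CPM. Without the 2 libraries that stand apart, Cxcl12 was lower (log2 -0.29, adjusted p = 0.00484) and Cxcl16 higher (0.48, adjusted p = 0.00133) in cardiomyocyte cultures with PE. The receptors Cxcr6 and Cx3cr1 stayed at or below 0.424 CPM in every library.

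Receptor transcripts were scarce, with 4 of 16 receptors tested. Cxcr4 had 6.46, 5.46 and 7.91 CPM in cardiomyocyte SFM, 6.21, 3.86 and 4.97 CPM with PE, 1.62 and 1.88 CPM in fibroblast SFM and 2.5 and 2.65 CPM with PE. The cell types did not overlap, and the difference was 3.79-fold in SFM and 1.94-fold with PE (log2 1.92 ± 0.24 and 0.96 ± 0.24; edgeR adjusted p = 2.76e-05 and 0.00378). Ccr1 had 2.7, 3.21 and 3.66 CPM, then 2.12, 1.58 and 0.917 CPM with PE, against 0.0521 to 0.253 CPM in fibroblasts. It was 20-fold higher in cardiomyocyte cultures in SFM. Ccr10 lay between 0.202 and 0.902 CPM over all libraries and was called in neither medium.

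Among the acute-phase genes, Lcn2, a siderophore-binding protein of innate immunity, had 91.8, 11 and 117 CPM in cardiomyocyte SFM, 13.2, 61.4 and 66.2 CPM with PE, 0.86 and 0.573 CPM in fibroblast SFM and 0.521 and 0.774 CPM with PE. The lowest cardiomyocyte library was 11 CPM and the highest fibroblast library 0.86 CPM, and the fitted difference in SFM was 101-fold (log2 6.67 ± 1.6; edgeR adjusted p = 0.00961). C3, the central complement component, had 27.2, 6.8 and 33.3 CPM, then 7.48, 18.1 and 15 CPM with PE, and 1.72, 1.82, 1.88 and 2.04 CPM in the fibroblast libraries. Chi3l1, a secreted chitinase-like protein, had 19.1, 4.87 and 28.8 CPM, then 3.34, 10.3 and 11.7 CPM with PE, and 1.77, 1.56, 1.41 and 1.16 CPM in fibroblasts. Both were higher in cardiomyocyte cultures in SFM, C3 12.7-fold and Chi3l1 10.6-fold, and no library of either cell type overlapped the other. Tnfaip3 was even across libraries of a cell type, with 6.8, 5.19 and 6.51 CPM, then 5.73, 7.33 and 6.56 CPM with PE, and 2.73, 2.6, 3.18 and 3.15 CPM in fibroblasts. It was 2.31-fold higher in SFM (log2 1.21 ± 0.18). Leaving out either fibroblast library of the medium compared ended the calls of Lcn2 and Chi3l1 in both media and of C3 with PE (edgeR adjusted p = 0.0541 to 0.135), and that of Chi3l1 with PE was also lost without cardiomyocyte PE replicate 2 or 3 or either fibroblast SFM library (0.054 to 0.081). In limma-voom Lcn2 was called in neither medium (adjusted p = 0.139 and 0.179), nor C3 (0.06) and Chi3l1 (0.136) with PE.

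Il33, a nuclear cytokine released from damaged cells, and its receptor Il1rl1 (ST2) are a known signalling pair between cardiac cells. Il1rl1 had 78.8, 101 and 71.7 CPM in cardiomyocyte SFM, 133, 66.3 and 60.7 CPM with PE, 46.9 and 39 CPM in fibroblast SFM and 33.5 and 28.8 CPM with PE. It was 1.95-fold higher in cardiomyocyte cultures in SFM and 2.77-fold with PE. Il33 had 4.63, 6.69 and 4.42 CPM, then 8.7, 5.87 and 5.21 CPM with PE, and 3.44, 3.33, 4.06 and 3.59 CPM in fibroblasts, a difference of 1.54-fold in SFM and 1.72-fold with PE. The cell types did not overlap for either gene. In SFM both calls were lost without cardiomyocyte SFM replicate 2 or either fibroblast SFM library (edgeR adjusted p = 0.0787 to 0.162), and Il1rl1 also without cardiomyocyte SFM replicate 1 (0.0558), and Il33 also without cardiomyocyte PE replicate 2 or either fibroblast PE library (0.0573 to 0.0634). With PE the Il33 call was lost without either fibroblast PE library (0.0546 and 0.104), and in SFM it was lost in limma-voom (0.0777). Il1b, the cytokine that induces many of these genes, was scarce, from 0.0535 to 1.11 CPM in cardiomyocyte cultures and at most 2 counts in a fibroblast library.

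Ptx3, a long pentraxin that recognises microbes and binds matrix, was the 1 tested gene higher in fibroblasts. It had 29.9, 26.4 and 31 CPM in cardiomyocyte SFM, 36, 35.3 and 34.6 CPM with PE, 112 and 86.2 CPM in fibroblast SFM and 187 and 180 CPM with PE. All fibroblast libraries lay above all cardiomyocyte libraries, and the PE libraries above the SFM libraries within each cell type. It was 3.41-fold lower in cardiomyocyte cultures in SFM (log2 -1.77 ± 0.1; edgeR adjusted p = 4.07e-08) and 5.2-fold lower with PE (-2.38 ± 0.1).

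**Figure D2:**
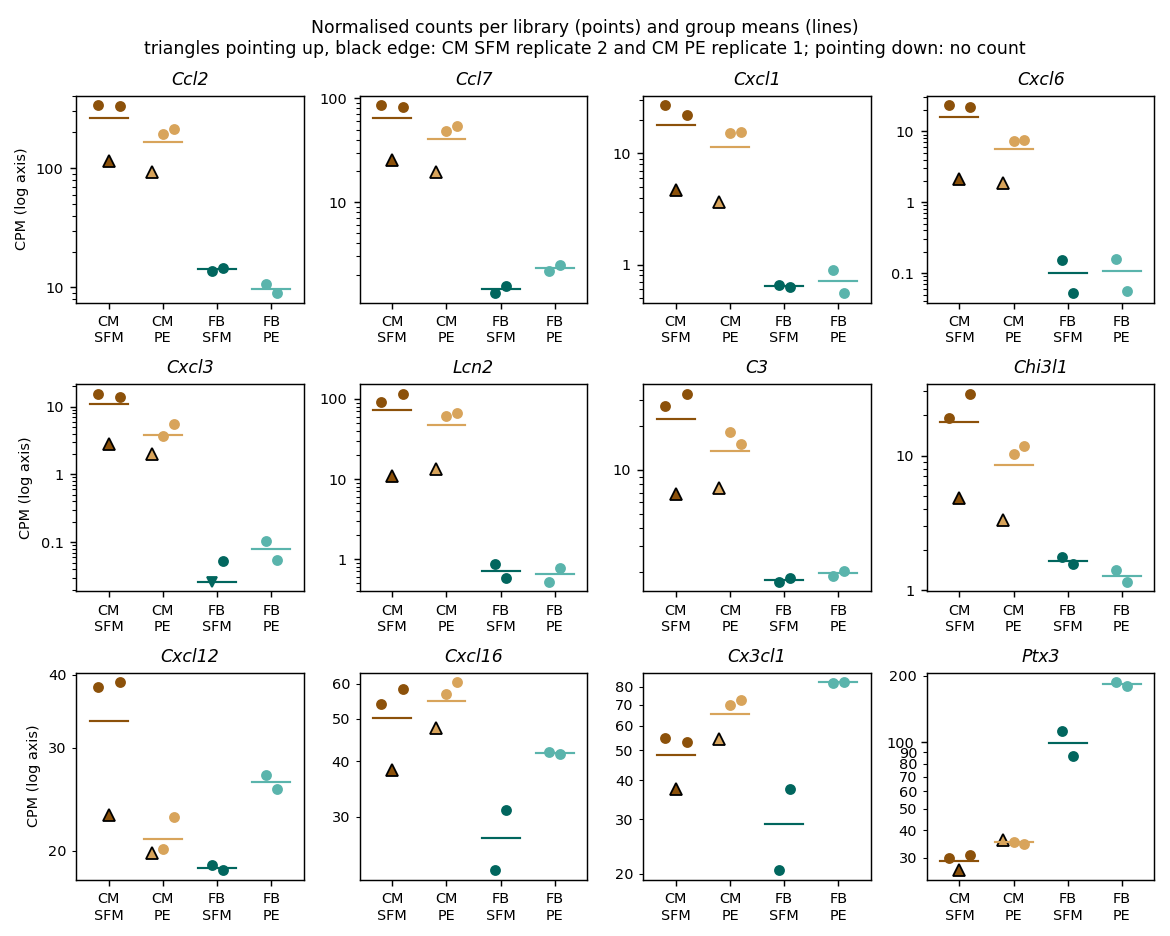
CPM on log axes (y) of 12 genes in each library, by group (x): cardiomyocyte cultures (CM) and fibroblasts (FB) in SFM or with PE, with lines at the group means. Cardiomyocyte SFM replicate 2 and PE replicate 1 (black-edged triangles) are far below their mates for Cxcl6 (2.14 against 23.5 and 22.3 CPM in SFM) and Lcn2 (11 against 91.8 and 117 CPM), and close to them for Ptx3.

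The remaining 27 genes had at most 9 counts in any library and were not tested. Over all 10 libraries the ligands summed to 52 counts for Ccl24, 42 for Cxcl17, 23 for Ccl22, 21 for Cxcl2, 19 for Cxcl13, 19 for Cxcl14, 17 for Ccl19, 14 for Ccl11, 12 for Cxcl9, 9 for Ccl28, 5 for Ccl25, 3 for Ccl17, 1 for Ccl1 and 1 for Ccl21. The receptors summed to 35 counts for Cxcr5, 11 for Ccr7, 4 for Ccr4, 4 for Cxcr3, 3 for Ccr6, 2 for Ccr9, 2 for Cxcr2, 2 for Cxcr6 and 1 for Cxcr1. Ccl26, Ccr2, Ccr3 and Ccr8 had no count at all. Depth limits what can be said of these genes. With no filter on low counts, Cxcl2 and Cxcl9 were called higher in cardiomyocyte cultures in SFM (edgeR adjusted p = 0.0173 and 0.0486). They had 14 and 9 counts over cardiomyocyte SFM, against 0 in fibroblast SFM.

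Macrophages and other leukocytes make and receive many of these signals, and their markers lay on the cardiomyocyte side too. In SFM 13 of 13 tested markers of 18 listed were higher, against 34.5% of all genes. With PE 12 were higher, against 33.7%. Among them in SFM were Itgam (log2 3.68 ± 0.22), Fcer1g (3.36 ± 0.19), Laptm5 (3.34 ± 0.23) and Ptprc (2.63 ± 0.21). The summed level of the 18 markers was 235 to 264 CPM in cardiomyocyte SFM, 164 to 205 CPM with PE, 25.1 to 42.3 CPM in fibroblast SFM and 35.2 to 39 CPM with PE. The T cell marker Cd3e and the neutrophil marker S100a9 had no count in any library. Markers of other cell types lay on the cardiomyocyte side too. Of 7 tested endothelial markers 6 were higher and 1 lower in both media (median log2 4.96 in SFM and 5.38 with PE, beside 3.3 and 2.49 for leukocyte markers). Of 5 epicardial and mesothelial markers 4 were higher and 0 lower in SFM, and 3 and 1 with PE. The part of any of these cell types in the higher chemokine levels was not tested, and in bulk RNA fewer cells of a type and less RNA per cell cannot be told apart.

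The same ligands and acute-phase genes separated libraries within the cardiomyocyte groups. SFM replicate 2 was at least 2-fold below the mean of its 2 mates in 12 of the 28 tested genes, against 1.55% of all genes, and PE replicate 1 in 11 of 28, against 1.93%. SFM replicate 2 was the lowest of 3 in 24 of 28 and PE replicate 1 in 19 of 28. The share of all genes for which each was the lowest of 3 was not counted. The median log2 ratio to the mates was -0.78 and -0.5 over the 28 genes and 0 over all genes. Since the libraries were known to stand apart, these are descriptions with no test. The other cardiomyocyte libraries had 0 or 1 of the 28 at least 2-fold lower, against 1.23% (SFM replicate 1), 1.35% (SFM replicate 3), 1.49% (PE replicate 2) and 1.06% (PE replicate 3) of all genes.

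Lower in both libraries by at least 2-fold were 9 genes: Cxcl1, Cxcl3, Cxcl6, Ccl2, Ccl7, Lcn2, C3, Chi3l1 and Il1b. The share of all genes lower in both was not counted, so only the shares for each library given above stand beside this. Il1b rests on few counts, 1 against 15 and 8 in SFM and 4 against 19 and 23 with PE. Cxcl6 was 10.7-fold below its mates in SFM replicate 2 and 4.02-fold in PE replicate 1, Lcn2 9.46-fold and 4.83-fold, and Cxcl1 5.34-fold and 4.24-fold. Ccl2 was 2.93-fold and 2.19-fold lower. Of the 9, 7 have a promoter in the RefSeq table and 4 of those hold the NF-kappaB motif printed above (Cxcl1, Cxcl6, Ccl7 and Lcn2), while C3, Chi3l1 and Il1b hold no match in the window searched. Beside this stand 5 of the 21 tested genes with a promoter and 3.42% of all promoters. The 9 were picked by their levels in these same libraries, so the motif count is a description, and the part of NF-kappaB was not tested. Other genes lay close to their mates or on the opposite side. Il1rl1 was 1.35-fold higher than its mates in SFM replicate 2 and 2.09-fold in PE replicate 1, and Il33 1.48-fold and 1.57-fold higher. Ptx3 (ratios 0.867 and 1.03) and Tnfaip3 (0.78 and 0.824) were close to their mates.

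Leukocyte markers did not share this pattern. None of the 13 tested was at least 2-fold lower in either library, and their summed level was 258 CPM in SFM replicate 2, against 235 and 264 CPM in its mates, and 205 CPM in PE replicate 1, against 165 and 164 CPM. The summed fibroblast markers were higher in both, at 8270 CPM against 4800 and 5010 CPM in SFM and 10100 CPM against 6670 and 6470 CPM with PE. Col1a1 carried most of this, with 7890 CPM against 4320 and 4400 CPM in SFM and 9700 CPM against 6410 and 6200 CPM with PE. The median log2 ratio to the mates over the 6 markers was 0.19 in SFM replicate 2, where Dcn (109 against 242 and 328 CPM) and Lum (67.2 against 74.2 and 99.4 CPM) were the lowest of 3, and 0.66 in PE replicate 1. The part of fibroblasts in the lower ligand levels was not tested. Of the endothelial markers, 3 of 7 were at least 2-fold lower in PE replicate 1 and 0 in SFM replicate 2. Of 30 genes of the NF-kappaB pathway itself, 1 was at least 2-fold lower in each library, with median log2 ratios of -0.2 and -0.23. SFM replicate 2 was the lowest of 3 in 20 of them and PE replicate 1 in 25, again with no share over all genes counted.

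**Figure D3:**
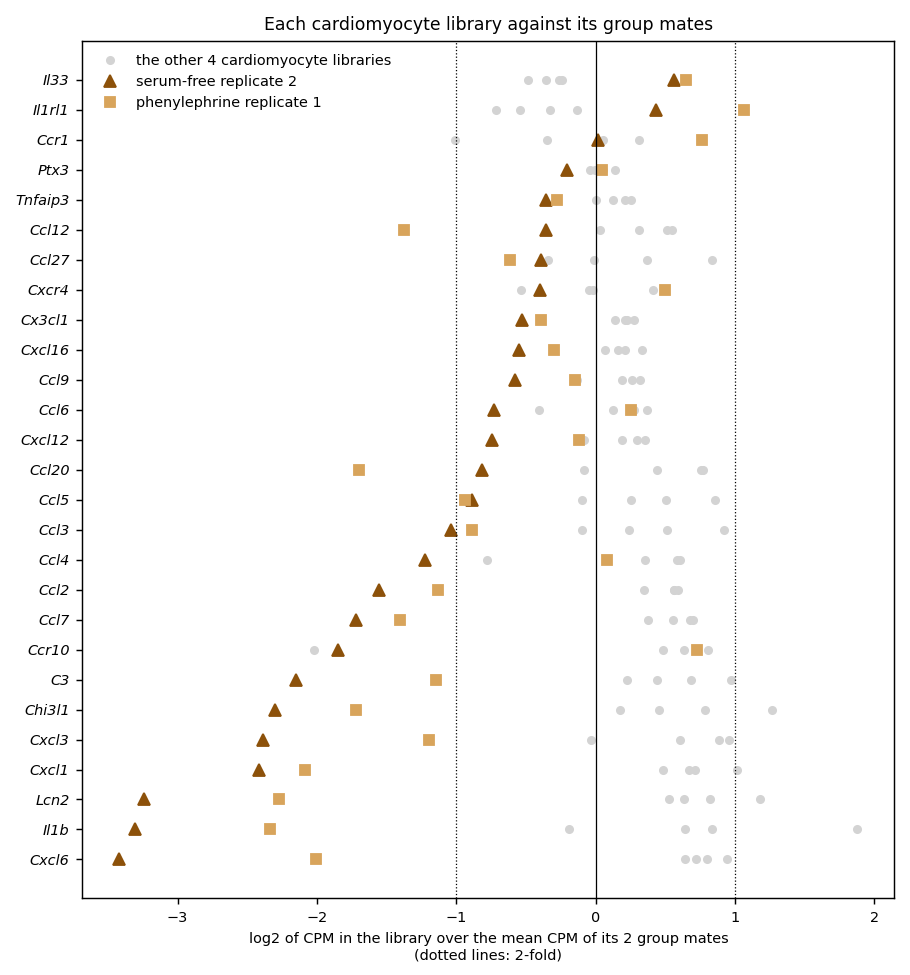
Log2 ratio of CPM in each cardiomyocyte library to the mean of its 2 group mates (x) for the tested genes reported here (y, ordered by SFM replicate 2). Triangles (SFM replicate 2) and squares (PE replicate 1) run together at the lower end, from Cxcl6 (10.7-fold and 4.02-fold lower) to Ccl2, and both lie right of 0 for Il33 and Il1rl1.

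PE in cardiomyocyte cultures (3 against 3 libraries) asked whether the agonist changes these transcripts in cells that grow in response to it. Of the 28 tested genes 0 rose and 1 fell, Ccl6, against 3.63% of all genes called (1.79% higher, 1.84% lower). At an unadjusted p below 0.05 edgeR gave 1 higher (Ptx3) and 6 lower, with the share of all genes at that threshold not counted. At an adjusted p below 0.05 DESeq2 called 0 higher and 2 lower, beside 504 and 446 of 13869 genes. In limma-voom the calls were 0 and 1, beside 343 and 316. The levels of Ccl6 given above, 3.85 to 6.51 CPM in SFM and 1.79 to 2.44 CPM with PE, did not overlap, and it fell 2.54-fold (log2 -1.35 ± 0.26; edgeR adjusted p = 0.0236). The Ccl6 call was lost without SFM replicate 1 (adjusted p = 0.119), SFM replicate 3 (0.117), PE replicate 2 (0.119) or PE replicate 3 (0.0919), and in a fit of the compared groups alone (0.0522). Ccl6 is a macrophage product, and 4 of 13 leukocyte markers also fell with PE: Laptm5 (log2 -0.78 ± 0.16), Fcer1g (-0.59 ± 0.13), Itgb2 (-0.98 ± 0.21) and Ptprc (-0.62 ± 0.15), each of these calls likewise lost without SFM replicate 1 or 3 or PE replicate 2 or 3. With all libraries 0 of the 13 markers were called higher. The macrophage marker Adgre1 went the other way, with 2.46, 5.3 and 2.47 CPM in SFM and 3.61, 5.16 and 4.92 CPM with PE. Without the 2 libraries that stand apart Adgre1 was the 1 marker that rose (log2 1.03, edgeR adjusted p = 0.000474), and 9 of the 13 fell. The part of leukocytes in the fall of Ccl6 was not tested.

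The libraries that stand apart decided how many other genes passed. Ccl2, for example, overlapped between the groups only through SFM replicate 2, at 115 CPM beside 93.1 to 213 CPM with PE. Without SFM replicate 2 and PE replicate 1, which leaves 2 against 2 libraries chosen for their likeness and so a smaller spread, 14 of the 28 genes fell and 0 rose, against 25.3% of all genes (13.2% higher, 12.1% lower). Without SFM replicate 2 alone 8 fell, beside 1274 higher and 1097 lower of 13832 genes. Without PE replicate 1 alone 2 fell, beside 530 higher and 554 lower of 13838 genes. The 14 were the neutrophil ligands Cxcl1 (log2 -0.68), Cxcl3 (-1.67) and Cxcl6 (-1.62), the CC ligands Ccl2 (-0.72), Ccl3 (-1.23), Ccl4 (-1.62), Ccl6 (-1.62) and Ccl7 (-0.71), Cxcl12 (-0.84) with its receptor Cxcr4 (-0.7), Ccr1 (-1.37), and C3 (-0.87), Chi3l1 (-1.12) and Lcn2 (-0.71). With all libraries the fitted values had the same sign for all 14, for instance -1.52 ± 0.77 for Cxcl6 (edgeR adjusted p = 0.299) and -0.65 ± 0.44 for Ccl2 (adjusted p = 0.433). Cxcl12 came nearest to the threshold, at -0.68 ± 0.17 and adjusted p = 0.0619, and DESeq2 called it (adjusted p = 0.00575). Over all libraries the median log2 change of the tested members was -0.52, beside 0 for all genes, with 19 of 28 below 0.

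**Figure D4:**
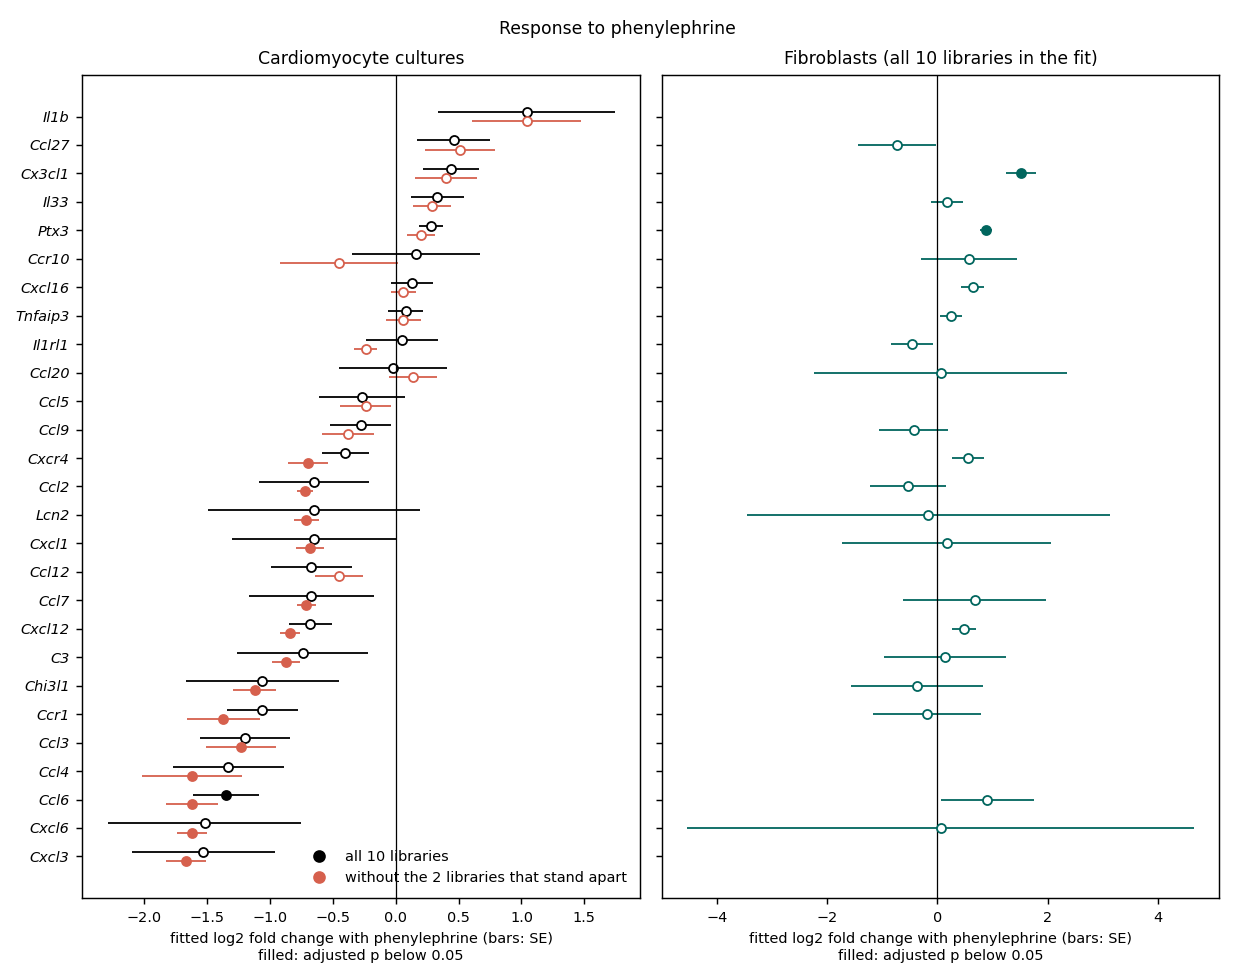
Fitted log2 change with PE (x, with SE) for the tested genes reported here (y), in cardiomyocyte cultures with all 10 libraries (black) and without the 2 libraries that stand apart (red), and in fibroblasts (right; genes with 3 counts or fewer over a fibroblast group are left out). Filled symbols passed the test: Ccl6 with all libraries and 14 genes without the 2, and Ptx3 and Cx3cl1 in fibroblasts.

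In fibroblasts (2 against 2 libraries) 2 of the 28 genes rose with PE and 0 fell, against 3.83% of all genes called (2.06% higher, 1.77% lower). Ptx3 rose 1.85-fold, from 112 and 86.2 CPM to 187 and 180 CPM (log2 0.89 ± 0.11; edgeR adjusted p = 0.00136), and stayed called without each library in turn. Cx3cl1 rose 2.86-fold, from 20.5 and 37.4 CPM to 82.5 and 83 CPM (1.52 ± 0.28, adjusted p = 0.0232). The Cx3cl1 call was lost without SFM replicate 1 (adjusted p = 0.11), PE replicate 1 (0.134) or PE replicate 2 (0.131) of the fibroblasts, with no filter on low counts (0.0727) and in a fit of the compared groups alone (0.118). Cxcl16 (0.64 ± 0.21, adjusted p = 0.15) and Cxcl12 (0.49 ± 0.22, adjusted p = 0.269) were higher in both PE libraries than in both SFM libraries and did not pass the test. Without the 2 cardiomyocyte libraries that stand apart, which enter the shared estimate of the spread, 5 rose (Ptx3, Cx3cl1, Cxcl12, Cxcl16 and Ccl7) and 2 fell (Ccl2 and Il1rl1), against 14.9% of all genes (7.47% higher, 7.44% lower). Without cardiomyocyte SFM replicate 2 alone 4 rose, beside 466 higher and 453 lower of 13832 genes.

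Outside the member rule, Ackr3 is a scavenger receptor that removes Cxcl12. Ackr3 had 50.7 and 46.8 CPM in fibroblast SFM and 119 and 113 CPM with PE, a rise of 2.38-fold (log2 1.25 ± 0.11; edgeR adjusted p = 0.000111). In cardiomyocyte cultures it had 52.4, 39.7 and 47.8 CPM in SFM and 43.5, 40.1 and 41.7 CPM with PE, which overlap. The difference between the 2 responses was -1.41 ± 0.14 (adjusted p = 0.000994).

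The response to PE differed between the cell types in 1 of the 28 genes, against 3.25% of all genes called (1.63% higher, 1.62% lower). This was Ptx3, with a change of 0.28 ± 0.096 in cardiomyocyte cultures (adjusted p = 0.126) and 0.89 ± 0.11 in fibroblasts, and a difference of -0.61 ± 0.14 (edgeR adjusted p = 0.0464). The call was lost without any single library other than cardiomyocyte SFM replicate 2, cardiomyocyte PE replicate 1 or fibroblast SFM replicate 1. The fitted response of Cxcl12 had opposite signs, at -0.68 in cardiomyocyte cultures and 0.49 in fibroblasts, with a difference of -1.17 ± 0.28 that did not pass (adjusted p = 0.0545); DESeq2 called it (adjusted p = 0.00189). Cxcl12 was also called without cardiomyocyte SFM replicate 2 (-1.37, adjusted p = 5.03e-05). For Cx3cl1 the difference was -1.08 ± 0.36 (adjusted p = 0.147). Without the 2 libraries that stand apart 7 genes were called, all with a lower response in cardiomyocyte cultures (C3, Ccl6, Ccl7, Cxcl12, Cxcl16, Cxcr4 and Ptx3), against 19.3% of all genes (10.4% higher, 8.83% lower).

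The pathways that induce these genes were read from lists of other genes. Of 30 NF-kappaB pathway genes 16 were higher and 4 lower in cardiomyocyte cultures in SFM (median log2 0.4), so that 20 of 30 were called, a share near the 66.1% of all genes. Those of smallest p were Tnfaip8 (2.27 ± 0.14), Tnip1, a partner of Tnfaip3 (1.09 ± 0.068), Ripk1 (-0.86 ± 0.097) and the adhesion molecule Icam1 (-1.28 ± 0.14). With PE 14 were higher and 4 lower, against 65% of all genes called, Tnfaip2 (-1.42) among the latter. PE raised 1 of them in cardiomyocyte cultures, Ier3 (0.34 ± 0.048, edgeR adjusted p = 0.0077), and in fibroblasts raised Tnfaip8 (0.85 ± 0.16) and lowered the kinase Chuk (-0.36 ± 0.086). The responses differed for Ier3 (0.57), Nfkbiz (1.24) and Tnfaip8 (-0.84). Over all genes 3.63% were called for PE in cardiomyocyte cultures, 3.83% in fibroblasts and 3.25% for the difference in response. The Ier3 difference stayed called without each library in turn, and those of Nfkbiz and Tnfaip8 were lost without SFM replicate 1 or 3 or PE replicate 2 or 3 of the cardiomyocytes or either fibroblast PE library, among others (adjusted p = 0.053 to 0.206). The Ier3 call in cardiomyocyte cultures was lost without SFM replicate 3 (adjusted p = 0.0523) or PE replicate 2 (0.0587). The fibroblast calls of Tnfaip8 and Chuk were lost without SFM replicate 1, PE replicate 1 or PE replicate 2 of the fibroblasts. That of Chuk was also lost without cardiomyocyte SFM replicate 1 or 3 or PE replicate 2 or 3 (edgeR adjusted p = 0.0548 to 0.0638).

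Of 28 tested interleukin 1, tumour necrosis factor and interleukin 6 family genes, 13 were higher and 9 lower in cardiomyocyte cultures in SFM, against 66.1% of all genes called, and 6 and 9 with PE, against 65%. In both media Stat3 was higher (log2 1.08 and 1.14) and Tnfrsf11b, the decoy receptor osteoprotegerin (-3.2 and -2.67), Il6st, the shared receptor gp130 (-1.27 and -1.23), and Irak4 (-1.02 and -1.06) were lower. Counts of the inducers themselves were low: Tnf had none in any library, Il1a stayed at or below 0.543 CPM and Il6 at or below 0.893 CPM. A count of 0 can also come from the annotation or from reads lost in counting, which was not tested. Il1rap, the accessory chain of the receptors for interleukin 1 and Il33, moved in opposite directions, with 17.2, 23.9 and 16.9 CPM in cardiomyocyte SFM, 28.3, 27.3 and 25.9 CPM with PE, 50.9 and 45.6 CPM in fibroblast SFM and 25.1 and 23.5 CPM with PE. Its change was 0.5 ± 0.12 and -0.99 ± 0.14, a difference of 1.49 ± 0.19 (edgeR adjusted p = 0.00338). The call in cardiomyocyte cultures (adjusted p = 0.0481) was lost without each library in turn other than SFM replicate 2, and that in fibroblasts without PE replicate 2 (0.0628). In fibroblasts Tnfrsf1b rose (1.29 ± 0.21) and Tnfrsf11b fell (-0.75 ± 0.11), and the response of Tnfrsf1b differed from that in cardiomyocyte cultures (-1.54). Without either fibroblast PE library the fibroblast call of Tnfrsf1b was lost (edgeR adjusted p = 0.0654 and 0.0688), as was that of its difference (0.0721 and 0.0797), and without replicate 1 that of Tnfrsf11b (0.0603).

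Other acute-phase and complement genes went both ways between the cell types, 13 of 28 tested higher and 7 lower in cardiomyocyte cultures in SFM, and 8 and 10 with PE, shares called that lie near the 66.1% and 65% of all genes. Cd59, which blocks the membrane attack complex (3.35 ± 0.092), and the C5a receptor C5ar1 (3.83 ± 0.24) were higher in SFM, and ceruloplasmin, Cp (-1.76 ± 0.13), was lower. With PE Ptges (-3.72) and Lbp (-1.57) were among the lower genes. In cardiomyocyte cultures PE lowered 2 of the 28 and raised 0, against 3.63% of all genes called. These were C4b (-1.18 ± 0.27) and Ptges (-1.06 ± 0.25), both calls lost without SFM replicate 1 or 3 or PE replicate 2 or 3. In fibroblasts 4 rose and 2 fell, against 3.83% of all genes called. Among them were Lbp, the lipopolysaccharide-binding protein (from 22.5 and 25.9 to 59.8 and 55 CPM, log2 1.25 ± 0.16), Cd55, a brake on complement (1.02 ± 0.17), C1r (0.63 ± 0.12) and Cp (-0.73 ± 0.14). Lbp stayed called without each library in turn, Cd55 was lost without fibroblast PE replicate 2 (edgeR adjusted p = 0.116), and C1r and Cp without either fibroblast PE library (0.117 to 0.16) and 1 of the fibroblast SFM libraries. The responses differed for 6 of 28, all lower in cardiomyocyte cultures, against 3.25% of all genes called. Those of smallest p were Ptges (-1.85), C4b (-1.81), C4a (-1.58) and C2 (-1.01). Each of these differences was lost without either fibroblast PE library (edgeR adjusted p = 0.054 to 0.12), and those of C2, C4a and C4b without other libraries too. C4a and C4b are near copies, so their single values are uncertain. Of 9 other tested chemokine receptors and ligands, 5 were higher and 3 lower in SFM and 4 and 4 with PE, against the same backgrounds. The chemerin system lay on the fibroblast side in SFM, with Rarres2, the ligand, at -2.58 ± 0.17 and Cmklr1, its receptor, at -3.93 ± 0.27, while the receptor-like Ccrl2 was higher in cardiomyocyte cultures (2.73 ± 0.28). Ackr3, described above, was the 1 gene of the 9 that changed with PE in fibroblasts, against 3.83% of all genes called. In cardiomyocyte cultures 0 of the 9 changed, against 3.63%.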

How the data were processed

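Messenger RNA of 10 libraries was sequenced from TruSeq RNA v2 libraries multiplexed on 1 lane, per the labels. Per the submitters' processing notes, cutadapt, TopHat2 2.0.10, HTSeq 0.6.1p1 and DESeq2 1.6.3 were used on build Rnor_6.0; annotation and strand setting are not given in the sources used here. The deposited table holds the authors' whole-number counts per gene symbol, and 10 further per-library columns were not used. Totals were 18048944 to 22794744 counts. Floors of 3 counts and exact binomial 95% intervals cover counting error only, and not the spread among libraries or reads lost through annotation or shared sequence. Counts were scaled by trimmed mean of M values, filtered (filterByExpr, minimum 10, total 15; 13869 genes left) and fitted over all 10 libraries by edgeR 4.0.16 quasi-likelihood with robust dispersion in R 4.3.3, with 5 contrasts. Calls are two-sided at a Benjamini-Hochberg adjusted p below 0.05 over all genes; ± is SE. Alternatives included DESeq2 1.42.0 and limma-voom 3.58.1; the scripts were tested on simulated data. Members, lists, contrasts and alternatives were chosen with earlier results of these data known. Values in every library are given for tested members called in a contrast with a group mean of at least 2 CPM, and up to 4 genes of smallest adjusted p were named per list and contrast. Tnf, Il1a, Il6, Cx3cr1, Cd3e and S100a9, outside that rule, were chosen after their values were seen. RefSeq names and promoters (GRCr8) matched by symbol. Some genes that enter the counts and sums are not reported here by name.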

Additional observations from a re-analysis of the deposited data

Results flagged for a closer look

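The response of Ptx3 to PE differed between the cell types by a test of the difference itself, at log2 -0.61 ± 0.14 (edgeR adjusted p = 0.0464), with both fibroblast PE libraries above both SFM libraries by 0.89 ± 0.11 and a change of 0.28 ± 0.096 in the cardiomyocyte cultures that did not pass the test. The call of the difference was lost with relative log expression factors (edgeR adjusted p = 0.0504), the replicate block (0.0691) and the crossed block (0.108). It was also lost in limma-voom (adjusted p = 0.0555). As given above, it was lost without most single libraries too (edgeR adjusted p = 0.0791 to 0.208). Ptx3 overlaps Veph1 in the RefSeq annotation, and the library kit does not mark strand.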

How the results depend on the processing

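The direction of the fitted change held for every called gene under every alternative that gave a value: of 3096 values of 154 gene comparisons, 2792 kept their side of the threshold, 246 lost the call, 58 gained one and 0 reversed. The number of the 28 genes called for PE in cardiomyocyte cultures (1) became 2 when scaled by library size alone, with DESeq2 or with no filter on low counts, 0 in a fit of the compared groups alone, and 14 without both libraries that stand apart. For PE in fibroblasts (2) it became 1 with no filter, with the replicate block, with the block crossed in fibroblasts (added after seeing the data) or at a fold of at least 2, 5 with the compared groups alone and 7 without both libraries. For the difference in response (1) it became 0 with relative log expression factors, limma-voom, the replicate block, the crossed block or a fold of at least 2, 2 by library size alone, 3 with DESeq2 and 7 without both libraries. The cause was not tested. Without each library in turn the counts ranged from 21 to 26 for cell type in SFM, 14 to 26 with PE, 0 to 8 for PE in cardiomyocyte cultures, 1 to 4 in fibroblasts and 0 to 2 for the difference.

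The labels do not say that a replicate number marks a shared preparation, and correlations between libraries cannot settle it. Deviations of same-numbered libraries correlated at -0.22, -0.1 and 0.02 in cardiomyocyte cultures, where the 2 libraries that stand apart bear different numbers. In fibroblasts the value was -0.04, and with 2 libraries per group the crossed numbers could only give its mirror, 0.04. With the replicate block the 5 counts were 25, 22, 1, 1 and 0, and with limma-voom 22, 18, 1, 2 and 0. Scaling by library size alone moved the split over all genes from 248 higher and 255 lower to 179 and 396 for PE in cardiomyocyte cultures, from 286 and 245 to 370 and 184 in fibroblasts and from 226 and 225 to 161 and 380 for the difference, with medians moved by at most 0.09. Over all genes 503 were called for PE in cardiomyocyte cultures with all libraries, 950 with DESeq2, 91 in the compared groups alone, 195 with the block and 3486 without both libraries; in fibroblasts 531, 760, 1306, 225 and 2056; for the difference 451, 790 with DESeq2, 198 with the block and 2657 without both libraries. Without each library in turn these counts ran from 32 to 2371 in cardiomyocyte cultures, 112 to 919 in fibroblasts and 71 to 1290 for the difference. A fold of at least 2 gave 89, 150 and 157. For cell type the counts over all genes without each library in turn ran from 8056 to 9338 in SFM and 7446 to 9353 with PE. Depth limits the 27 untested genes and the fibroblast levels near 1 count.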
